A study of Oncorhynchus mykiss with 3 samples.

Results

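The miR-221 and miR-222 names of rainbow trout (Oncorhynchus mykiss) eggs comprised 20 of the 1059 unique sequences of known miRNAs, listed under 8 of 575 names and 6 of 496 study numbers. They were chosen by name, as all sequences with miR-221 or miR-222 as family number, with 10 sequences for each number. The eggs came from commercially bred trout and were taken at 1, 7 and 14 days post-ovulation (D1PO, D7PO and D14PO). RNA of several females was pooled into 1 small RNA library per age, 3 libraries in all, without replicate libraries. The sample labels give survival rates of 91.80% for D1PO, 73.40% for D7PO and less than 50.0% for D14PO. In the paper the same percentages are fertilization rates, judged from the cleavage of embryos. The table gives 1 number of reads for each sequence and names no library. Therefore, every value here describes the eggs of the 3 ages together, and no difference between ages was computed. That the reads are counts over the 3 libraries is an assumption that is not stated for the table. The table's sum is above the reads that the paper gives as mapped to miRBase for the libraries together, so the assumption does not match those totals. Intervals are at 95%, exact Poisson for reads and Clopper-Pearson for shares and ratios, and cover the counting error of reads only. Copied reads are not independent molecules, so the intervals can be too narrow for molecules.

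A miRNA is cut from a hairpin transcript as a short duplex of a 5p and a 3p strand, and 1 strand is kept to guide silencing of mRNAs. Targets are chosen largely by the seed, bases 2 to 8 of that strand. In vertebrates, miR-221 and miR-222 are usually encoded side by side and share the seed of their 3p strands. In human cells they are known for repressing the cell cycle inhibitor CDKN1B and the receptor KIT, and they are abundant in endothelial cells. Their roles in trout eggs were not measured in this study.

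Sequences of each arm are shown because the shared 3p seed can be read from them, with all of omy-miR-221-3p and the most abundant sequence of omy-miR-222b-3p, omy-miR-222a-3p, omy-miR-221-5p and omy-miR-222a-5p. Capitals mark bases 2 to 8, counted from the 5′ end.
omy-miR-221-3p, 20 nt: aGCUACAUugucugcugggu
omy-miR-221-3p, 22 nt: aGCUACAUugucugcuggguuu
omy-miR-221-3p, 23 nt: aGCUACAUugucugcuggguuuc
omy-miR-222b-3p, 21 nt: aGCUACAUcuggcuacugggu
omy-miR-222a-3p, 23 nt: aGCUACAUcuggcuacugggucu
omy-miR-221-5p, 26 nt: aCCUAGCAuacaauguagauuucugu
omy-miR-222a-5p, 22 nt: uGCUCAGUagucaguguagauc
The 3p sequences of miR-221 and miR-222 are identical over the first base and the seed and differ only behind it. The 23-nt forms of omy-miR-221-3p and omy-miR-222a-3p differ at 12 of 23 positions, from U9C to C23U, with base 1 at the 5′ end of omy-miR-221-3p. The 5p sequences share neither the seed nor the first base.

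Together the 20 sequences had 31051 reads (30707 to 31398), or 0.404% of the 7684127 reads of known miRNAs. Both numbers were of similar abundance, with 14892 reads of miR-221 (14654 to 15133) and 16159 of miR-222 (15911 to 16410). The ratio of miR-221 to miR-222 was 0.922 (0.901 to 0.942), a small difference that exceeds the counting error of reads. For the 3p arms alone, as judged from the sequences, the ratio was 0.976 (0.953 to 0.9996) and thus closer to equal. Among the 140 family numbers of known miRNAs, ordered by summed reads, miR-222 took place 47 and miR-221 place 50. The numbers around them were miR-217 with 16253 reads at place 46, miR-192 with 16123 and miR-135 with 15994 in between, and miR-499 with 14304 at place 51. The intervals of miR-217, miR-222, miR-192 and miR-135 overlap, so these neighbours were not separated by counting error, while miR-221 lies below miR-135 and above miR-499 beyond it. A single member sequence had a median of 275.5 reads and a range of 10 to 7126, against a median of 135 and a range of 10 to 1190453 for the other known sequences.

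**Figure D1:**
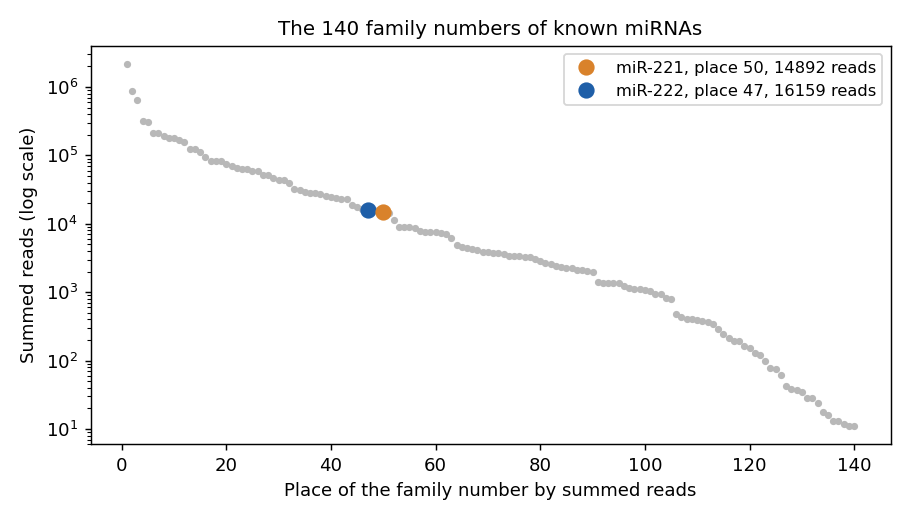
Summed reads (log scale) of each of the 140 family numbers of known miRNAs, in order of abundance. Each point is 1 number, and miR-221 and miR-222 stand 3 places apart, at 50 and 47.

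The 3p arm carried most of the reads of both numbers. As listed, miR-221 had 13124 reads on the 3p arm and 1768 on the 5p arm, a ratio of 7.42 (7.06 to 7.81). For miR-222 there were 13573 reads on the 3p arm and 2586 on the 5p arm, a ratio of 5.25 (5.03 to 5.48). The names listed as 3p held 86.0% of all member reads (85.6 to 86.4). The 5p arm was thus less abundant but not rare. It held 11.9% of miR-221 and 16.0% of miR-222 reads as listed. For miR-221 the listed 5p reads include 122 reads of a 3p sequence and the repeats of omy-mir-221-2-5p. By sequence, miR-221 had 13246 reads on the 3p arm and 1503 on the 5p arm, a ratio of 8.81 (8.35 to 9.30). Its 5p share was then 10.2% (9.71 to 10.7), and miR-222 was unchanged. All 5p sequences of miR-221 were of 26 nt or longer, and 26 nt is the upper length limit in the methods of the study. Whether that limit lowered the 5p share of miR-221 was not tested. As listed, in the 95 family numbers with both arms and at least 1000 reads, the lesser arm held a median of 4.15%, and it held more than in miR-221 for 33 of them and more than in miR-222 for 28.

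**Figure D2:**
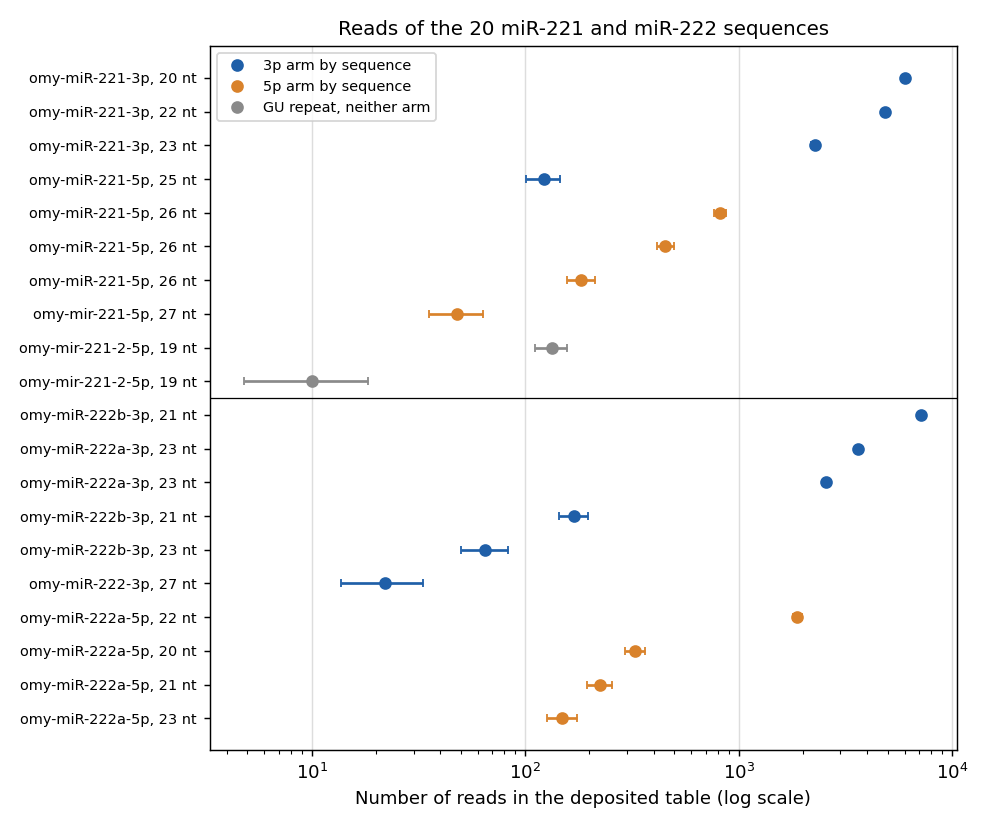
Reads (log scale) of the 20 sequences, with miR-221 above the line and miR-222 below it, and with the listed name and the length of each. Points are single values of the deposited table with 95% Poisson intervals and are coloured by the arm that the sequence itself matches, so that the 25-nt sequence named omy-miR-221-5p stands with the 3p arm.

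omy-miR-221-3p was read as 3 sequences with the same first 20 bases. The 20-nt form had 6002 reads (5851 to 6156), the 22-nt form 4849 (4713 to 4987) and the 23-nt form 2273 (2181 to 2368). The shortest form was the most frequent but held only 45.7% of the name (44.9 to 46.6). Another form with the same first 23 bases, aGCUACAUugucugcuggguuucuu, is 25 nt long and had 122 reads (101 to 146). It is listed as omy-miR-221-5p, although it begins with the whole 23-nt form of omy-miR-221-3p, and it has no genome position. No 21-nt form is listed, and why was not tested. Sequences with fewer than 10 copies were removed by the authors, but whether a 21-nt form was among them is not known.

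The 3p arm of miR-222 was read almost entirely as a single sequence type under 3 names. The sequence with the most reads of all members was the 21-nt form named omy-miR-222b-3p, with 7126 reads (6961 to 7293). The 23-nt forms named omy-miR-222a-3p begin with the same 21 bases. They had 3614 (3497 to 3734) and 2577 reads (2478 to 2678) and differ from each other by U23G, with the more frequent form first and base 1 at its 5′ end. The name omy-miR-222-3p covers a 27-nt form with the same first 23 bases as the more frequent omy-miR-222a-3p, with 22 reads (13.8 to 33.3) and no genome position.
A second sequence type appears only under omy-miR-222b-3p. It is shown against the first, with the differing bases in capitals.
omy-miR-222a-3p, 23 nt: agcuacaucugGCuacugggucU
omy-miR-222b-3p, 23 nt: agcuacaucugAUuacugggucA
The differences are G12A, C13U and U23A, with base 1 at the 5′ end of omy-miR-222a-3p. This type had 169 reads as a 21-nt form (144.5 to 196.5) and 65 as a 23-nt form (50.2 to 82.8). Counted by sequence, 13339 reads were of the first type and 234 of the second, a ratio of 57.0 (50.1 to 65.1). By name, however, omy-miR-222a-3p had 6191 reads and omy-miR-222b-3p 7360. Of the reads named omy-miR-222b-3p, 96.8% (96.4 to 97.2) were thus of the 21 bases that omy-miR-222a-3p begins with.

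The 5p arm of miR-221 was read as 4 sequences of 26 or 27 nt, of which the most abundant of each miR-221 hairpin is shown, with the differing bases in capitals.
omy-miR-221-5p, most reads: accuAgcauacaAuguagaUuucugu
omy-miR-221-5p, hairpin beside miR-222: accuGgcauacaGuguagaAuucugu
The first had 818 reads (763 to 876), or 54.4% of the 1503 reads of this arm by sequence. The form with the next most reads, 454 (413 to 498), is not shown here and differs from the first by A5G alone. The sequence listed at the hairpin beside miR-222 differs from the first by A5G, A13G and U20A. It had 231 reads (202 to 263) in all, 48 of them (35.4 to 63.6) with 1 more base under the name omy-mir-221-5p, spelt with a lower-case r. Positions are counted from the 5′ end of the first sequence. Positions 13 and 20 separate the sequences of the hairpins, while G at position 5 was also listed at the hairpin of the first sequence. As position 5 lies in the seed, the 5p reads of miR-221 had 2 seeds, one with 818 and the other with 685 reads.

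The 5p arm of miR-222 was listed under omy-miR-222a-5p as 4 sequences of 20 to 23 nt. The 22-nt form shown above had 1886 reads (1802 to 1973), or 72.9% of the name (71.2 to 74.6). A 20-nt form with 328 reads (293.5 to 365.5) and a 23-nt form with 149 (126 to 175) differ from it by U11G. The remaining form, with 223 reads (195 to 254), lacks the first 2 bases of the 23-nt form and therefore has another seed.
omy-miR-222a-5p, 23 nt: uGCUCAGUaggcaguguagaucc
omy-miR-222a-5p, 21 nt: cUCAGUAGgcaguguagaucc
It made up 8.62% of the miR-222 5p reads (7.57 to 9.77). No such shift of the first base was listed for the 3p arm, where all 10 sequences by letters, with 26819 reads, begin with the same 8 bases. Of the 257 other known names with at least 2 sequences, 146 or 56.8% had all reads in 1 seed, and so did 3 of the 6 such names among the members, all of the 3p arm. The 3p seed GCUACAU was found in no other sequence of the tables, neither as bases 2 to 8 nor at another place, among 1039 known and 359 predicted sequences searched on the strand listed.

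Lengths set the 5p arm of miR-221 apart. All 1503 of its reads were listed under sequences of at least 26 nt (99.8 to 100), against 0.0878% of the reads of other known 5p sequences. Lengths are those of the listed sequences, and whether reads of other lengths were summed into them is not known. Per the methods of the study, sequences above an upper length limit were removed, and 26 nt is that limit. Whether this filter accounts for the few longer reads was not tested. The 27-nt forms listed here exceed the limit, as do 11 of the 1039 other known sequences. Below the limit, other known 5p sequences had 4.62% of their reads at 24 nt and 0.0349% at 25 nt. Among 127 arms of other family numbers with at least 1000 reads, 1 had most of its reads at 26 nt or longer, the 3p arm of miR-7641 with 79.3%. For 114 of the 127 arms no such read was listed. The 5p arm of miR-222, in contrast, was listed only at 20 to 24 nt. Reads of the 3p arm of both numbers were spread over 20 nt with 22.4%, 21 nt with 27.2%, 22 nt with 18.1% and 23 nt with 31.8%, while 32.1% of other known 3p reads were of 21 nt, 61.0% of 22 nt and 2.80% of 23 nt. These shares of other miRNAs are weighted by reads, so the most abundant miRNAs set them. By sequences, 4 of the 10 member 3p sequences were of 23 nt, against 74 of 529.

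**Figure D3:**
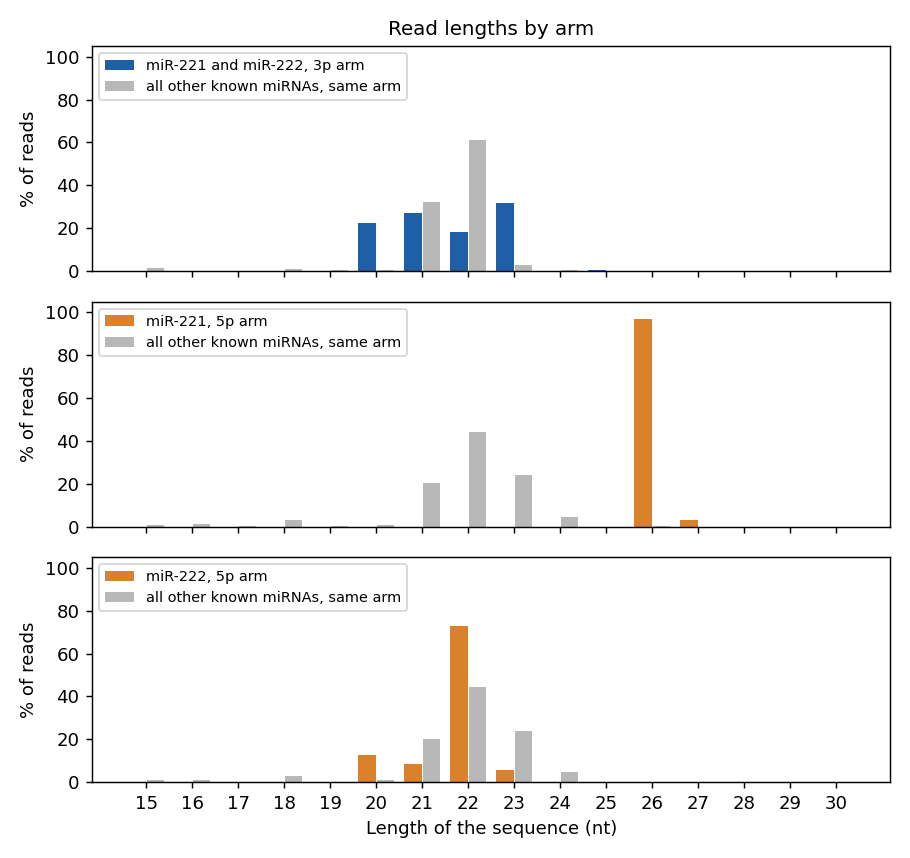
Share of reads (%) at each length in nt for the 3p arm of miR-221 and miR-222 (top), the 5p arm of miR-221 (middle) and the 5p arm of miR-222 (bottom), with arms taken from the sequences, beside all other known miRNAs of the same listed arm in grey. Lengths are those of the listed sequences. The miR-221 5p reads lie at 26 and 27 nt, where other 5p reads are nearly missing.

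The table places 16 of the 20 sequences at 5 hairpins. The genome build of these positions is unnamed in the table and in the methods. All are on chrUn, which holds unplaced scaffolds joined together, so distances and missing neighbours on it are only as listed. No annotation of that build was used here, so the genes or introns around the hairpins are not given. A miR-222 hairpin lies on the plus strand from 219239935 to 219239994, and a miR-221 hairpin follows on the same strand from 219240081 to 219240189, with 86 bases between them and 255 bases for the pair. This is the only pair of neighbours among the members within 10 kb, and no other known or predicted hairpin of the tables lies within 10 kb of any member hairpin. The other 3 member hairpins, a miR-221 hairpin on the plus strand from 77637600 to 77637668, a miR-222 hairpin on the minus strand from 43945006 to 43945074 and a miR-222 hairpin of the omy-miR-222b-3p type on the plus strand from 387754314 to 387754405, have no neighbour in the tables.

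Most miR-221 reads were not listed at the hairpin beside miR-222. The miR-221 hairpin of the pair had 231 reads (202 to 263), all of the 5p arm, and the miR-221 hairpin without a neighbour had 14396 reads (14162 to 14633), or 46.4% of all member reads. The pair made up 29.8% of member reads, 9012 of its 9243 reads at the miR-222 hairpin. The minus-strand hairpin of miR-222 had 6891 reads (6729 to 7056) and the hairpin of the omy-miR-222b-3p type 234 (205 to 266), all of its 3p arm. Each unique sequence is listed at 1 position only, with 0 sequences listed more than once in both tables. A 3p strand that is identical in several copies is thus counted at 1 of them, and the reads of a hairpin are not its output. Where the 21-nt sequence with 7126 reads was also counted at the minus-strand hairpin, whose 23-nt forms begin with it, that hairpin had 14017 reads in place of 6891. The listed 5p sequences differ between the copies that have one, but the hairpin of the omy-miR-222b-3p type has none listed. Per the methods of the study, sequences with fewer than 10 copies were removed, so a rarer 5p form would not be listed. As listed, the pair's miR-221 hairpin held 15.4% of the miR-221 5p reads (13.6 to 17.3). The pair's miR-222 hairpin held 72.9% of the miR-222 5p reads. The 454 reads of the A5G form of omy-miR-221-5p count here at the miR-221 hairpin without a neighbour, where they are listed.

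**Figure D4:**
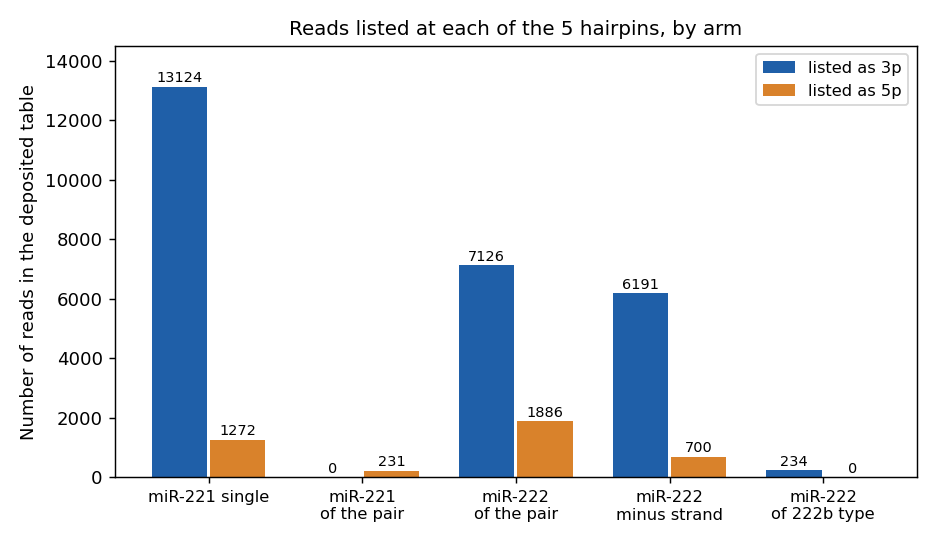
Reads listed at each of the 5 member hairpins on the 3p arm (blue) and the 5p arm (orange), both as named in the table. The miR-221 hairpin of the pair has 231 reads of the 5p arm and none listed on the 3p arm, while the single miR-221 hairpin has 13124 on the 3p arm.

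The ratio of 3p to 5p reads of a hairpin depends on where the table lists a shared 3p sequence. As listed, it was 10.3 at the single miR-221 hairpin, 8.84 at the minus-strand miR-222 hairpin and 3.78 at the miR-222 hairpin of the pair. With the shared 21-nt sequence counted at the minus-strand hairpin instead, the ratio there was 19.02 and the miR-222 hairpin of the pair had 0 reads on the 3p arm. How the reads divide between the hairpins cannot be told apart, and the ratios were not ranked. At 2 of the 6 hairpin arms with several sequences, the listed sequences differ by a base, which was the case for 73 of 171 such arms of other known miRNAs, or 42.7%. These are the A5G pair of omy-miR-221-5p and the U23G pair of omy-miR-222a-3p, and at most 1 sequence of each pair can match the same place letter by letter.

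The main 5p and 3p sequences of a hairpin paired in a computed duplex. The single miR-221 hairpin gave 17 base pairs at -25.0 kcal/mol, the miR-222 hairpin of the pair 18 at -27.1 and the minus-strand miR-222 hairpin 17 at -25.7. For 149 other hairpins with both arms the median was 16 base pairs (quartiles 15 and 18) and -20.6 kcal/mol (quartiles -23.1 and -17.6). The members' duplexes thus lay below the lower quartile of energy, but the other hairpins were not matched to them in strand length. The miR-222 duplex of the pair was computed with the shared 21-nt 3p sequence, whose reads cannot be assigned to that hairpin alone. In the miR-221 duplex the last 8 bases of the 26-nt 5p strand were unpaired, against 3 of the 22-nt 5p strand in the miR-222 duplex of the pair. The 5p sequence of the pair's miR-221 hairpin, which has no 3p sequence listed, gave 17 base pairs at -23.7 kcal/mol with the 20-nt omy-miR-221-3p. These are predictions at 37 °C from the letters alone and no measurement of pairing.

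The spacing of the pair was compared with that of other miRNA numbers known to be encoded together. Of 7 such other groups, 5 had hairpins within 10 kb on the same strand of the deposited table. Of the remaining groups, miR-144 with miR-451 could not be measured, since 0 sequences of miR-144 are listed, and miR-199 with miR-214 had no hairpins within 10 kb. The 86 bases between miR-222 and miR-221 compare with 84 for the closest hairpins of miR-23, miR-24 and miR-27, 215 for miR-182, miR-183 and miR-96, 386 for miR-143 and miR-145, 2458 for miR-193 and miR-365, and 4 for the miR-17 to miR-92 group. Groups of more numbers or copies have more pairs of hairpins from which the closest is taken, so the values are not fully alike. Hairpin ends are those listed and may hold more or less of the flanks. Of 380 hairpin loci of known miRNAs, 129 or 33.9% had another within 10 kb on the strand and 23 or 6.05% had one at 86 bases or closer. Both counts include the hairpins of the pair itself.

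**Figure D5:**
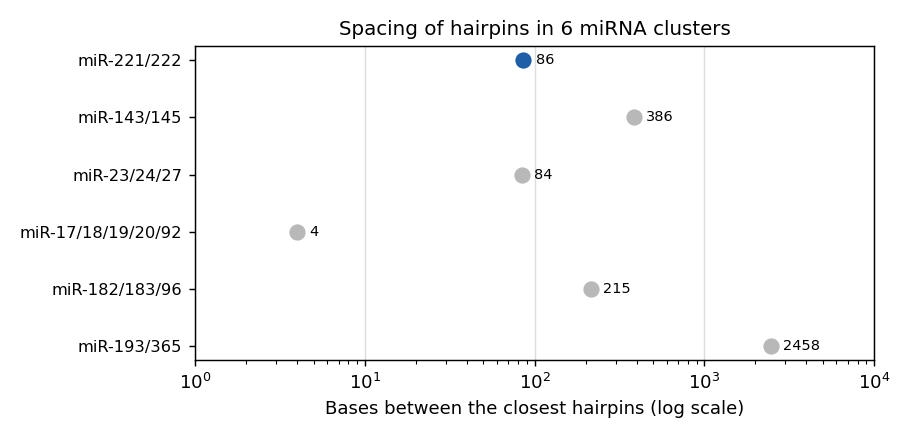
Bases between the closest hairpins (log scale) for miR-221 with miR-222 and the 5 of 7 other groups of co-encoded miRNAs with hairpins within 10 kb on 1 strand. The miR-221 and miR-222 pair, in blue, is at 86 bases, next to the group of miR-23, miR-24 and miR-27 at 84.

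The name omy-mir-221-2-5p did not hold a sequence of either arm. Its 2 sequences of 19 nt, of which gUGUGUGUgugugugugug had 133 reads (111 to 158) and the other 10 (4.80 to 18.4), are mostly runs of alternating G and U, the second with 2 C bases, and have no genome position. The repeat of 133 reads contains sequences named omy-mir-16c-5p, with 185 reads, and omy-mir-338-2-5p, with 262 reads, so that numbers of unrelated families share these letters. The 2 sequences held 0.461% of member reads. Sequences without a genome position, 4 of the 20, held 287 reads or 0.924% (0.821 to 1.04). Among the other known miRNAs, 226 of 1039 sequences had no position, a similar share by sequences. These held 2.13% of the reads of the other known miRNAs (2.12 to 2.14). Names spelt with a lower-case r had 3 of the 20 sequences and 191 reads, and 2 of the 3 were without a position, compared with 59.7% of 236 such sequences of other families and 10.6% of their 803 sequences spelt otherwise.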

How the data were processed

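The deposited tables give counts of reads per unique sequence, 7684127 in known and 333447 in predicted miRNAs. Per the methods of the study, the authors used ACGT101-miR to filter out low-quality, low-copy, too short or too long, adapter and simple sequences and matches to mRNA, Rfam and Repbase, and compared the rest with miRBase. The count column of each table names no library, so no test between ages and no p-value is given. The members, lists and comparisons were chosen with earlier results of these data known. All member names are described. Other names are given where they share letters with a member or lie next to one in the order of reads, and the groups of co-encoded miRNAs come from a list. The exception is miR-7641, which is named for its read lengths in these data.

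Reads were summed by name, number, arm and hairpin. Arms by sequence were taken from ungapped alignment to the most abundant sequence of each arm and number, with at most 3 differences and a shift of at most 3 bases. Arm duplexes were computed with RNAduplex of ViennaRNA 2.7.2. None of the member names matched a symbol in the RefSeq gene table used here. Intervals and alignments were tested on simulated data. Python 3.11.15, pandas 2.3.3, SciPy 1.17.1 and matplotlib 3.10.9 were used.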

Additional observations from a re-analysis of the deposited data

How the results depend on the processing

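Of 25 alternatives, 16 stayed within the counting interval of the reported value (or, for places in the order of reads and neighbouring hairpins, within 1.5 times of it) and 9 did not. With only sequences of 20 to 24 nt, which leaves out all 5p sequences of miR-221, the members had 29261 reads in place of 31051, the 3p arm held 91.2% of them in place of 86.0%, miR-221 held 44.9% in place of 48.0%, and 0.0% had no genome position. The 3p share was 86.7% with only placed sequences and 86.8% with arms by sequence. The minus-strand miR-222 hairpin had 14017 reads in place of 6891 where sequences were also counted within longer ones. Placing the shared 21-nt sequence at that hairpin alone, chosen after seeing the data, moved the ratio of 3p to 5p reads there to 19.02 in place of 8.84, and to 0.0 in place of 3.78 at the miR-222 hairpin of the pair. At the other hairpins no sequence was added in this way, so their counts could not move. A minimum of 50 reads left out only the sequences of 10, 22 and 48 reads, so it could hardly move the values. None of the values it was applied to changed beyond counting error. Low counts limit the sequences under 50 reads most, as for omy-miR-222-3p with 22 reads (13.8 to 33.3). Here no paired analysis was possible because there is 1 library per age. With 1 read column, other normalizations and tests between ages were not run, and a difference of these miRNAs with egg age was not analysed here.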
